A study of Mus musculus with 16 samples.

Results

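The genes of the Arp2/3 complex and its closest partners in actin remodelling were followed in retinal microglia over the first week after optic nerve crush. The 10 genes were 7 that encode subunits of the complex (Actr2, Actr3, Arpc1b, Arpc2, Arpc3, Arpc4 and Arpc5), the coronin gene Coro1a, and Pfn1 and Tmsb4x, whose products bind actin monomers. They were taken by gene name from the table of expression values, in which they are 10 of 55385 genes, and all 10 passed the filter on low values that left 14795 genes for testing. Arp2/3 binds the side of an actin filament and starts a new filament there as a branch, once it has been activated by nucleation-promoting factors of the WASP and WAVE families. Coronins take part in the turnover of these branches, profilin delivers actin monomers to growing filament ends, and thymosin beta 4 holds monomers in reserve. Microglia use branched actin networks when their processes extend, when they migrate and when they engulf material.

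The cells were sorted by fluorescence from the retinas of Iba1-EGFP mice for EGFP, here a reporter for Iba1 (Aif1), which microglia and other macrophages express, and their RNA was sequenced in bulk. Optic nerve crush injures the axons of retinal ganglion cells behind the eye. All 16 libraries came from Iba1-EGFP mice and no other allele is given. The 4 libraries of day 0 came from mice of 15 weeks with no treatment, those of days 2 and 4 after crush from mice of 13 weeks, and those of day 7 after crush from mice of 16 weeks, again 4 libraries each. Age and day can therefore not be told apart, except between days 2 and 4. The title code puts replicates 1 and 2 of each day in a first batch and replicates 3 and 4 in a second, and the titles of day 2 replicates 3 and 4 begin with F where the others begin with M, and the labels explain neither these letters nor the code. Only the first digits of the code were used. Its last digits also differ within a batch: days 0 and 4 share the whole code in the first batch but not in the second, days 4 and 7 in the second but not in the first, and days 2 and 4 in neither. Within-batch changes can therefore still hold a difference in code. Whether the libraries of a day came from separate mice is not stated in the labels, and the spread behind each p-value may therefore be technical.

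The libraries held 8647278 to 15708300 reads assigned to genes, as recovered from the table. Values are given in FPKM, fragments scaled for gene length and library size, and changes as differences of log2(FPKM + 1), which understate the change of low genes. The label microglia was met by its markers in every library, with Aif1 at 130 to 961 FPKM, Cx3cr1 at 113 to 441, P2ry12 at 150.1 to 1223 and Tmem119 at 42.5 to 653. RNA of rod photoreceptors was also present in every library, with Gnat1 at 847 to 4958 FPKM. The 12 rod genes summed to 1716 to 11354 FPKM and the 12 microglia genes to 3278 to 12985. The rod sum was above the microglia sum in day 0 replicate 1 (11354 against 3278) and in day 7 replicate 2 (5259 against 5211). The monocyte gene Ccr2 did not exceed 0.18 FPKM, the T cell gene Cd3e 0.311 and the neutrophil gene S100a8 0.82, and Cd3e and S100a8 were listed at 0 in 7 and 11 of the 16 libraries. Sums over the whole marker lists of these cells were higher. They reached 47.8 FPKM for 8 monocyte genes and 91.4 for 7 neutrophil genes, each in day 0 replicate 4. For 10 lymphocyte genes the sum reached 31.1 FPKM in day 7 replicate 4. Day 0 replicate 1 stood apart from the other 15 libraries. It had the lowest value of Aif1, the highest of Gnat1, and Hba-a1, a globin gene of red blood cells, at 173 FPKM.

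The 3 genes with the largest changes at day 4 are introduced by the 250 bases before each start that the RefSeq table lists for them, read in the direction of the gene (RefSeq, GRCm38.p6). They are shown for these 3 genes because the results turn on them, and the capitals mark each GC box, the letters GGGCGG or their reverse complement. The Actr3 window is chr1:125435728-125435977 on the minus strand, the Coro1a windows chr7:126704817-126705066 (start 1) and chr7:126704221-126704470 (start 2) on the minus strand, and the Pfn1 window chr11:70654651-70654900 on the minus strand, where an exon of the long non-coding RNA Gm12319 also lies. Both Coro1a windows lie inside the span of Coro1a in the authors' table, so neither is upstream of the start used there, and the window of start 2 overlaps an exon of Coro1a and holds no GC box.
Actr3: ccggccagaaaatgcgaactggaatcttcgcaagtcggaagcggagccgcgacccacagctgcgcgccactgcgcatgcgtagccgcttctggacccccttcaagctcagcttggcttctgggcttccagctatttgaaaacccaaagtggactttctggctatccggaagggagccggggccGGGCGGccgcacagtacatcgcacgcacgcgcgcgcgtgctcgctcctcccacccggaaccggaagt
Coro1a start 1: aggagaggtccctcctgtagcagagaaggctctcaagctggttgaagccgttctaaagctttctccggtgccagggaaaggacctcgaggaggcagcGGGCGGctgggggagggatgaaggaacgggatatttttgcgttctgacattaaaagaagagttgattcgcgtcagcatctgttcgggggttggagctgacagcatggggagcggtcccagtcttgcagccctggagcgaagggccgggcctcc
Coro1a start 2: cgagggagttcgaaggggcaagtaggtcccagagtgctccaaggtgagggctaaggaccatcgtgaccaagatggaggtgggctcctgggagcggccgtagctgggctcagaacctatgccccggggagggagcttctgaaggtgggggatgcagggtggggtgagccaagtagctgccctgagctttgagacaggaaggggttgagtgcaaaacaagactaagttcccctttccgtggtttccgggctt
Pfn1: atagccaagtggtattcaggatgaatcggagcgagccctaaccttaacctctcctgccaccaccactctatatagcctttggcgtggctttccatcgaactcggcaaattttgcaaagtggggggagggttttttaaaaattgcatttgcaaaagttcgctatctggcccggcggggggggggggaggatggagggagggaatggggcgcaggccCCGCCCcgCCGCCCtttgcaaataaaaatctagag

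A GC box on either strand lay in at least 1 such window for 8 of the 10 genes, all but Arpc3 and Arpc4, and for Coro1a in 1 of its 2 windows. Counted the same way per gene, the letters lay in a window of 35.4% of the 27025 genes of the RefSeq table and of 62.5% of the 8833 tested genes found there. Counted per window, they lay in 32.7% of all 32851 windows. The CCAAT letters were found for Actr2 and Arpc5, against 37.5% of all genes of the table. CACGTG was found for Arpc5 only among the 10, against 6.86% of genes, and a CArG box for Arpc4 only, against 1.62%. GAGGAAGT, a form of the site of the myeloid factor PU.1, was found for none of the 10 and for 2.79% of all genes. Every motif was searched on both strands. The CArG pattern can hold the CCAAT letters, so the shares of genes with these motifs are not separate. Of the tested genes found in the RefSeq table, 41.2% had the CCAAT letters, 9.93% CACGTG, 1.46% a CArG box and 3.16% GAGGAAGT. The windows of Arpc1b, Arpc2 and Tmsb4x overlap exons of their own gene in the authors' table. Those of Arpc4 and Arpc5 overlap exons of Tada3 and Rgl1. A match is a description of these windows only.

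The genes lie on 6 chromosomes of GRCm38, and the values count reads over their exons. Actr2 spans chr11:20062304-20112913, Actr3 chr1:125392905-125435727, Arpc1b chr5:145114215-145130705, Arpc2 chr1:74236084-74268209 and Arpc3 chr5:122391878-122414184. Arpc4 spans chr6:113378115-113390448, Arpc5 chr1:152766542-152775597, Coro1a chr7:126699773-126707787, Pfn1 chr11:70651850-70654644 and Tmsb4x chrX:167207093-167209315. Actr3 shared 98.8% of 2348 aligned bases with the gene model Gm8822, whose reads came to 24.3% of those of Actr3, so how reads were split between them is uncertain. Gm5637 matched Arpc1b at 96.5% identity, with reads equal to 13.7% of those of Arpc1b, and 18.2% of the exon bases of Arpc1b overlap Pdap1 on the opposite strand, which the library kit does not tell apart. Of the exon bases of Arpc4, 12.2% overlap Ttll3 on the same strand. No such copy of at least 200 bases at 95% identity was found for Arpc3, Arpc5, Coro1a, Pfn1 or Tmsb4x.

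Before injury the 10 genes covered a wide range of levels. Tmsb4x, at 5823 ± 2668 FPKM (SD, n = 4), lay above every other member in each of the 16 libraries, and it took 0.31% to 1.77% of the reads assigned to genes in a library. Arpc2 (324 ± 126 FPKM) and Pfn1 (322 ± 131) followed, and their order at day 0 differed between libraries. Coro1a, Arpc5, Arpc4, Arpc1b, Actr3 and Arpc3 came next, and Actr2 was the lowest at 27.2 ± 11.2 FPKM. At day 0 the ranges of every pair of neighbours in this order overlapped, except Tmsb4x and Arpc2. Of the summed FPKM of the 7 subunit genes, Arpc2 made up 40.4 ± 8.70% and Actr2 3.29 ± 0.501%. At day 4 the level of Pfn1 (973 ± 107 FPKM) was above Arpc2 (662 ± 85.7) in every library, with no overlap of their ranges.

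**Figure D1:**
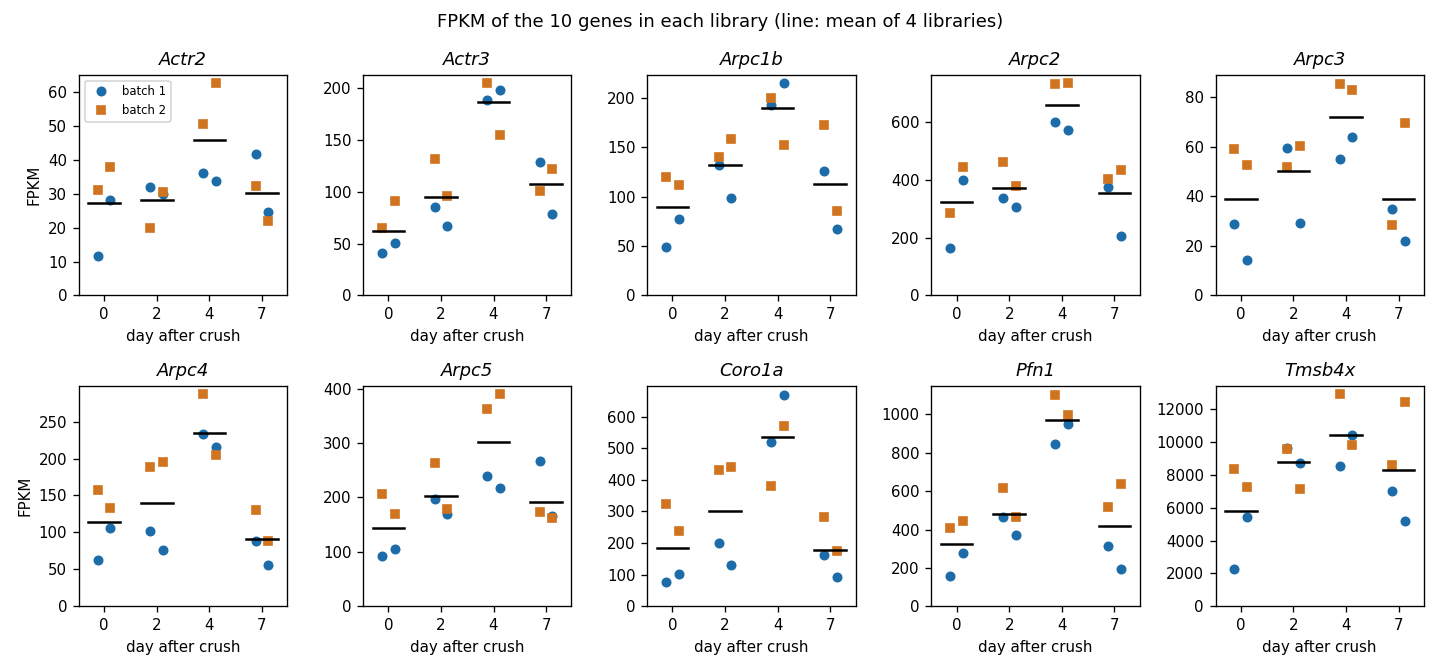
FPKM (vertical axes, from 0) of the 10 genes by day after crush, with a point for each library, its batch shown by color and shape, and a line at the mean of 4 libraries. The day 4 points lie above all day 0 points for 8 genes, and for Arpc3 and Actr2 they overlap with them.

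At day 4 most genes of the complex and its partners were higher than before injury, and Coro1a, Arpc4 and Pfn1 were lower again at day 7. The 7 subunit genes together summed to 800 ± 256 FPKM at day 0, 1019 ± 206 at day 2, 1693 ± 194 at day 4 and 928 ± 206 at day 7 (SD, n = 4 each). The day 4 sums, from 1518 to 1923 FPKM, were above the sums of all other days, of which the highest was 1257 at day 2. Of the 10 genes, 7 rose from day 0 to day 4 in the limma fit over all genes tested, at an adjusted p under 0.05. In the same comparison 5.34% of all genes tested were called, and 4.62% were called higher. The 10 genes were chosen with earlier results of these data known, so these shares are given as description and not as a test. All 10 members had a positive change, as did 8284 of the 14795 genes tested, with a median of 1.11 on the log2 scale against 0.16 over all genes tested. All 4 day 4 libraries lay above all 4 day 0 libraries for 8 of the 10 members, against 12.6% of all genes tested.

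Actr3 encodes Arp3, an actin-related subunit that with Arp2 forms the start of the new filament. It stood at 41.1, 50.7, 64.8 and 90.8 FPKM in the day 0 libraries and at 189, 198, 205 and 155 in the day 4 libraries. Every day 4 library was higher than every day 0 library. The change of Actr3 was 1.63 ± 0.25 (SE), an adjusted p of 0.0035, and it was 2.06 in the first batch and 1.20 in the second. Its near copy Gm8822 moved by 1.596 with an adjusted p of 0.00567. Actr2, which encodes Arp2, was at 11.6, 28.1, 31.2 and 38.0 FPKM at day 0 and at 36.2, 33.6, 50.4 and 62.5 at day 4. Both batch 1 libraries of day 4 fell inside the day 0 range for Actr2. Its change of 0.80 ± 0.36 did not pass, with an adjusted p of 0.216.

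Arpc2 and Arpc4 form the core of the complex that holds the mother filament. Arpc2 was at 165, 400, 286 and 446 FPKM at day 0 and at 603, 573, 733 and 737 at day 4, with no overlap. It rose by 1.12 ± 0.26, with an adjusted p of 0.0231, and within the batches by 1.19 and 1.04. Arpc4 was at 62.9, 105.4, 157 and 133 FPKM at day 0 and at 233, 216, 287 and 204 at day 4, again with no overlap. It rose by 1.10 ± 0.27, with an adjusted p of 0.028. Since Arpc4 shares exon bases with Ttll3, its value may hold reads of both.

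Arpc1b is a WD-repeat subunit that is the main form in blood cells, and Arpc5 binds beside it. Arpc1b was at 49.4, 77.5, 120.2 and 112 FPKM at day 0 and at 193, 215, 199.7 and 153 at day 4. The lowest day 4 library of Arpc1b was above the highest at day 0. It rose by 1.14 ± 0.30, with an adjusted p of 0.039, and by 1.70 and 0.59 within the batches. Arpc5 was at 92.4, 105.1, 206 and 170.1 FPKM at day 0 and at 239, 218, 362 and 391 at day 4, so the gap between the groups was small. It rose by 1.10 ± 0.26, with an adjusted p of 0.0256. Arpc3, which links the actin-related subunits to the rest of the complex, was at 28.9, 14.3, 59.0 and 52.8 FPKM at day 0 and at 55.1, 63.8, 85.5 and 83.0 at day 4. For Arpc3 a single day 4 library lay inside the day 0 range, and its change of 1.04 ± 0.35 had an adjusted p of 0.0976. The lowest count behind a member was that of Arpc3 in day 0 replicate 2, 402.5 reads.

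Coro1a, the coronin of blood cells, had the largest fitted change of the 10 genes. It was at 75.8, 103, 324 and 239 FPKM in the day 0 libraries and at 519, 668, 382 and 570.5 in the day 4 libraries. The groups did not overlap, but both first-batch libraries of day 0 were far below the second-batch ones. Coro1a rose by 1.73 ± 0.37, with an adjusted p of 0.0156, by 2.72 in the first batch and by 0.74 in the second. A limma test of that difference between batches had an unadjusted p of 0.00298 and an adjusted p of 0.31, and none of the 10 members passed it. With 2 libraries a day in each batch, not passing does not show equal changes.

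Pfn1 encodes profilin 1 and had the smallest adjusted p of the 10 genes. Its level was 157, 279, 408 and 445 FPKM at day 0, 468, 374, 618 and 464 at day 2, 845, 950.2, 1103 and 995 at day 4, and 314, 196, 517 and 639 at day 7. The 4 day 4 libraries were above the other 12. Pfn1 rose by 1.69 ± 0.26 from day 0 to day 4, with an adjusted p of 0.00344, and by 2.09 and 1.29 within the batches. Tmsb4x, the gene of thymosin beta 4, was at 2260, 5413, 8352 and 7268 FPKM at day 0 and at 8526, 10403, 12910 and 9803 at day 4. Those groups did not overlap, yet the lowest day 4 library of Tmsb4x was close to the highest at day 0. Its change of 0.98 ± 0.30 did not pass, with an adjusted p of 0.0693.

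The day 4 count depended on single libraries and on the scaling. Without day 0 replicate 1, the library that stood apart, 3 of the 10 genes passed (Actr3, Coro1a and Pfn1), and without day 4 replicate 3 the count was also 3. Without day 4 replicate 1, or without day 4 replicate 2, 2 passed (Actr3 and Pfn1). Actr3 and Pfn1 passed whichever of the 16 libraries was left out. Scaling by median-of-ratios factors moved the median change of all genes tested from 0.16 to -0.17 and the share of higher genes among all calls from 86.6% to 56.5%. Under that scaling all 10 members kept a positive change, and Actr3 (1.17) and Pfn1 (1.23) passed.

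**Figure D2:**
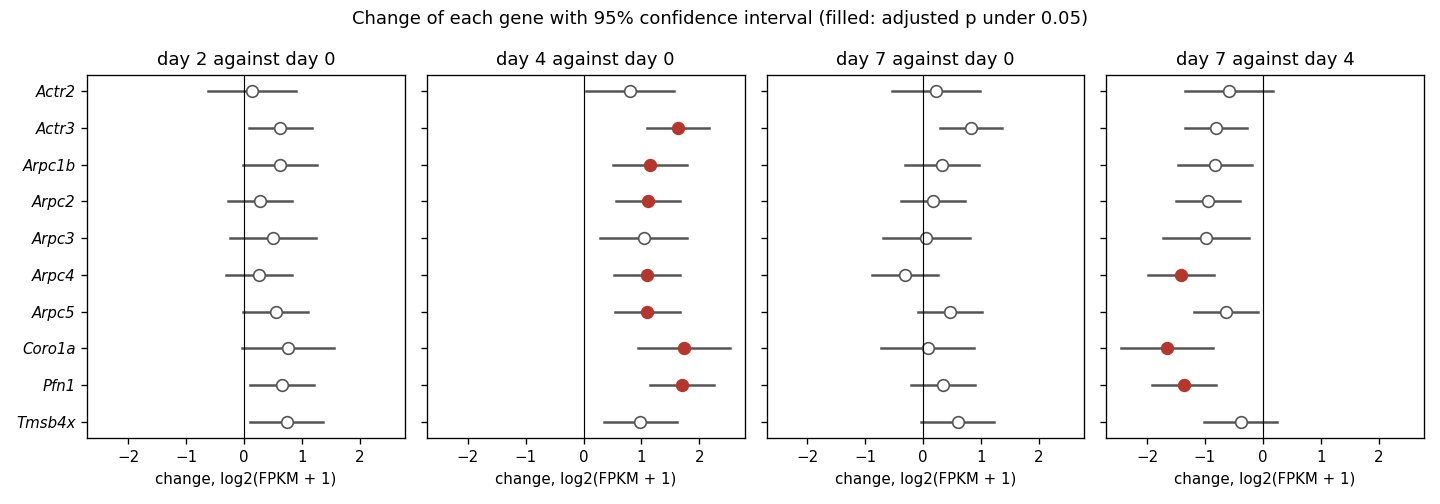
Change of each gene on the log2(FPKM + 1) scale (horizontal axes) with its 95% confidence interval, in 4 comparisons, with filled points for an adjusted p under 0.05. At day 4 against day 0 the points of 7 genes are filled and all intervals lie above 0, while at day 7 against day 4 the filled points are Arpc4, Coro1a and Pfn1.

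At day 2 none of the 10 genes passed in the limma fit, where 0.311% of all genes tested were called, and 3 had an unadjusted p under 0.05 (Actr3, Pfn1 and Tmsb4x), beside 1439 of all 14795 genes tested. All 10 changes were positive, with a median of 0.58 against 0.04 over all genes tested. The day 2 libraries of Actr3, at 85.4, 66.8, 132 and 95.7 FPKM, overlapped with day 0 and lay below all day 4 libraries. Coro1a at day 2 was split between the batches, at 200 and 132 FPKM in the first and 430.1 and 440 in the second. Its change from day 0 was 0.76 ± 0.37, with an adjusted p of 0.534. The change of Actr2 at day 2, 0.13 ± 0.36, was negative in the second batch (-0.47) and without day 0 replicate 1 (-0.20).

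From day 2 to day 4, with mice of the same age, none of the 10 genes passed in the limma fit, where 0.453% of all genes tested were called, and 5 had an unadjusted p under 0.05, beside 1692 of all 14795 genes tested. The sizes were 1.03 ± 0.26 for Pfn1 and 1.002 ± 0.25 for Actr3, each with an adjusted p of 0.102. All 4 day 4 libraries were above all 4 day 2 libraries for 5 members (Actr2, Actr3, Arpc2, Arpc4 and Pfn1), against 7.83% of all genes tested. Tmsb4x differed least, by 0.24 ± 0.30, and it was at 7140 to 9659 FPKM at day 2. This comparison and the one with day 0 share the day 4 libraries.

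From day 4 to day 7 the genes Coro1a, Arpc4 and Pfn1 fell. In this comparison 1.63% of all genes tested were called, and 1.5% were called lower. Of the 241 calls 19 were higher and 222 lower, with a median change of -0.25 over all genes tested. With median-of-ratios scaling that median was 0.05, 32 of 72 calls were higher and 40 lower, and none of the 3 members passed (Coro1a -1.21, adjusted p of 0.154; Arpc4 -0.96, 0.113; Pfn1 -0.90, 0.0832). Coro1a stood at 163, 91.7, 284 and 176 FPKM at day 7, all below the lowest day 4 value, and fell by 1.66 ± 0.37, with an adjusted p of 0.0377. Arpc4 was at 88.3, 56.2, 131 and 87.9 FPKM at day 7, below every day 4 library, and fell by 1.41 ± 0.27, with an adjusted p of 0.0169. Pfn1 fell by 1.36 ± 0.26, with an adjusted p of 0.018. All 10 members had a negative change, where 5551 of the 14795 genes tested had a positive one, with a median of -0.88 against -0.25 over all genes tested. All 4 day 7 libraries were below all 4 day 4 libraries for 5 members (Actr3, Arpc2, Arpc4, Coro1a and Pfn1), against 8.66% of all genes tested. Actr3, at 129, 78.6, 100.5 and 122 FPKM, changed by -0.81 ± 0.25, which did not pass at an adjusted p of 0.122. None of the 3 calls was left without day 4 replicate 1, without day 4 replicate 2 or without day 7 replicate 2, and 4 members passed without day 0 replicate 1.

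Against day 0, none of the 10 genes passed at day 7 in the limma fit, where 0.406% of all genes tested were called, and 1 had an unadjusted p under 0.05, Actr3 (0.82 ± 0.25, adjusted p of 0.212), beside 1797 of all 14795 genes tested. Arpc4 was the member with a negative change, -0.32 ± 0.27, with an adjusted p of 0.663. The intervals for the other genes were wide: that of Coro1a, whose change was 0.07, ran from -0.72 to 0.87. The days 2, 4 and 7 comparisons share the same day 0 libraries. A limma F test for any difference between the 4 days called Pfn1 (adjusted p of 0.0103), Actr3 (0.0147), Arpc4 (0.0333) and Coro1a (0.0407), beside 2.89% of all genes tested.

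Several subunits have a second gene, and the share of each form was compared by its FPKM, a value per length. Arpc1b made up 58.2%, 66.7%, 69.7% and 82.3% of the sum of Arpc1a and Arpc1b in the day 0 libraries. At day 4 the share of Arpc1b was 90.9%, 89.4%, 98.9% and 91.7%, above day 0 in both batches and with no overlap. The means were 69.2 ± 9.999% and 92.7 ± 4.24%, a difference with an exact two-sided permutation p of 0.0286, the smallest that 4 against 4 libraries allow, and an adjusted p of 0.514 over 18 such tests. No share could pass that adjustment unless most of the 18 tests reached this smallest p. The adjusted values of the shares therefore decide nothing. Arpc1a itself was at 37.6 ± 11.6 FPKM at day 0 and 15.2 ± 9.94 at day 4, a change of -1.57 with an adjusted p of 0.1 in limma. The share of Arpc1b was 76.8 ± 5.65% at day 2 and 79.7 ± 1.27% at day 7.

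Coro1a was 62.1 ± 12.6% of the sum of Coro1a, Coro1b and Coro1c at day 0 and 82.3 ± 4.11% at day 4, with an overlap of the groups and an exact permutation p of 0.0571 (adjusted p of 0.514). Arpc5 held 89.2 ± 4.36% of Arpc5 and Arpc5l at day 0 and 92.7 ± 2.097% at day 4, and those ranges overlapped. Pfn1 made up 68.7% to 99.8% of Pfn1 and Pfn2 at day 0 and at least 98.6% at day 4. Tmsb4x was at least 99.1% of Tmsb4x and Tmsb10 in every library. Within the complex, the share of Actr3 in the summed FPKM of the 7 subunit genes was 7.83 ± 1.28% at day 0, 11.1 ± 1.93% at day 4 and 11.7 ± 1.39% at day 7.

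**Figure D3:**
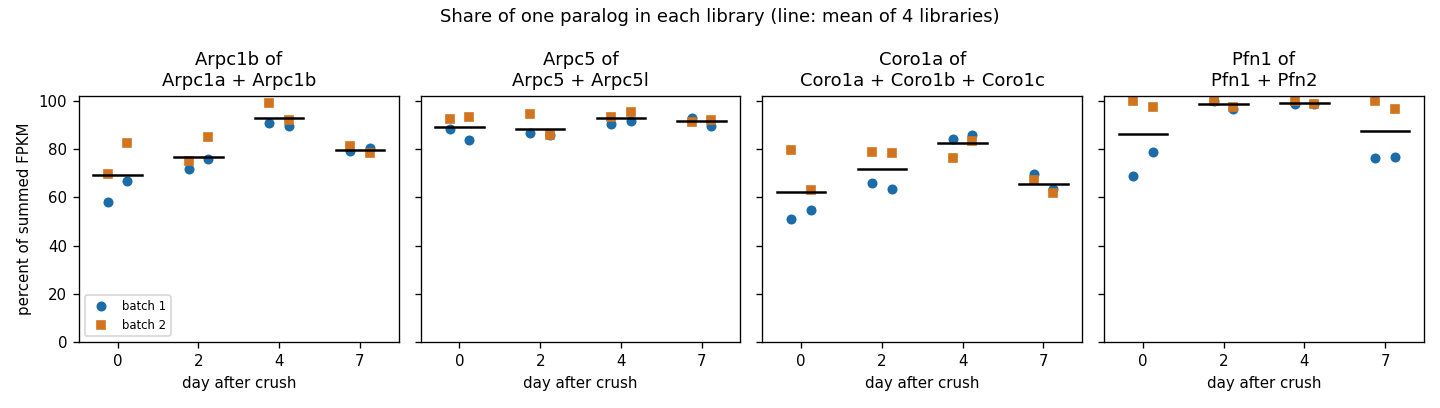
Share of a paralog (percent of the summed FPKM, from 0) by day after crush, with a point for each library, its batch shown by color and shape, and a line at the mean of 4. Arpc1b lies at 58.2% to 82.3% at day 0 and at 89.4% to 98.9% at day 4, while Arpc5 stays between 83.6% and 95.3%.

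The other genes of the actin system were read from 8 lists at day 4 against day 0. Among actins and monomer-binding genes, 2 of 7 tested genes rose. Actb, the gene of cytoplasmic beta actin, went from 525 ± 278 to 1292 ± 77.1 FPKM (1.49, adjusted p of 0.00713), and Actg1, that of gamma actin, from 230.3 ± 40.1 to 492 ± 77.6 (1.10, adjusted p of 0.00771). Of 12 severing and capping genes 3 rose: Cfl1, the gene of cofilin (1.28, adjusted p of 0.00771), Capg, a capping protein of macrophages (1.70, adjusted p of 0.0327), and Capza2, a subunit of capping protein (1.01, adjusted p of 0.0319). Of 15 bundling and crosslinking genes 2 rose, Tagln2 (3.04, adjusted p of 0.00511) and Cotl1 (1.48, adjusted p of 0.039). Tagln2, a transgelin, went from 38.9 ± 21.8 to 257 ± 23.2 FPKM, and its day 4 libraries were all above day 0. Without day 0 replicate 1, Actb, Actg1, Cfl1 and Tagln2 still passed, and Capg, Capza2 and Cotl1 did not. With median-of-ratios scaling only Tagln2 of these 7 genes passed (2.58, adjusted p of 0.016), while Actb (1.02, 0.0503), Actg1 (0.63, 0.078) and Cfl1 (0.81, 0.0622) did not.

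The upstream activators and their partners did not pass. In a list of nucleation-promoting factors that also holds other subunits and partners of their complexes, limma called none of 20 tested genes. Of these 20 genes, 2 had an unadjusted p under 0.05 (beside 3086 of all 14795 genes tested), and their median change was -0.27. Was, the gene of WASP, was at 4.14 ± 3.48 FPKM at day 0 and 8.79 ± 1.48 at day 4 (1.20, adjusted p of 0.333). None of 9 branch inhibitors and other coronins was called by limma, and none had an unadjusted p under 0.05. For formins, which start unbranched filaments, and for elongators, limma called 0 of 8, with 1 at an unadjusted p under 0.05. Of the 3 other subunit genes, Arpc1a, Arpc5l and Actr3b, limma called 0, and 1 had an unadjusted p under 0.05. Outside these lists, Arhgdib rose (1.02, adjusted p of 0.0451), and it did not pass without day 0 replicate 1. Arhgdib comes from a further list whose counts are not reported here. It is named because it was called, where 4.62% of all genes tested were called higher, and nothing is read from it about that list. Rac2, the Rac of blood cells, had a change of 1.20 with an adjusted p of 0.0534, and Cdc42 of 0.49 with 0.309. Of 5 myosin II genes Myl12a, a regulatory light chain, rose (0.96, adjusted p of 0.0273), and this call too was lost without day 0 replicate 1. With median-of-ratios scaling neither Arhgdib (adjusted p of 0.299) nor Myl12a (0.245) passed. The difference between these lists and the 10 genes was not tested.

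From day 4 to day 7, 3 of 7 actin and monomer-binding genes fell: Actb by 1.30 (adjusted p of 0.0272), Actg1 by 0.91 (0.0362) and Cap1, which recycles actin monomers, by 2.22 (0.0367). Tagln2 fell by 2.28 (adjusted p of 0.0368) and Tpm3, a tropomyosin, by 1.58 (0.016), among 15 bundling and crosslinking genes. None of the other lists had a limma call in this comparison. In limma, 2 of 20 nucleation-promoting factors and partners and 3 of 12 severing and capping genes had an unadjusted p under 0.05. That was so for 2410 of all 14795 genes tested. With median-of-ratios scaling none of these 5 calls was left, at adjusted p of 0.109 to 0.254.

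**Figure D4:**
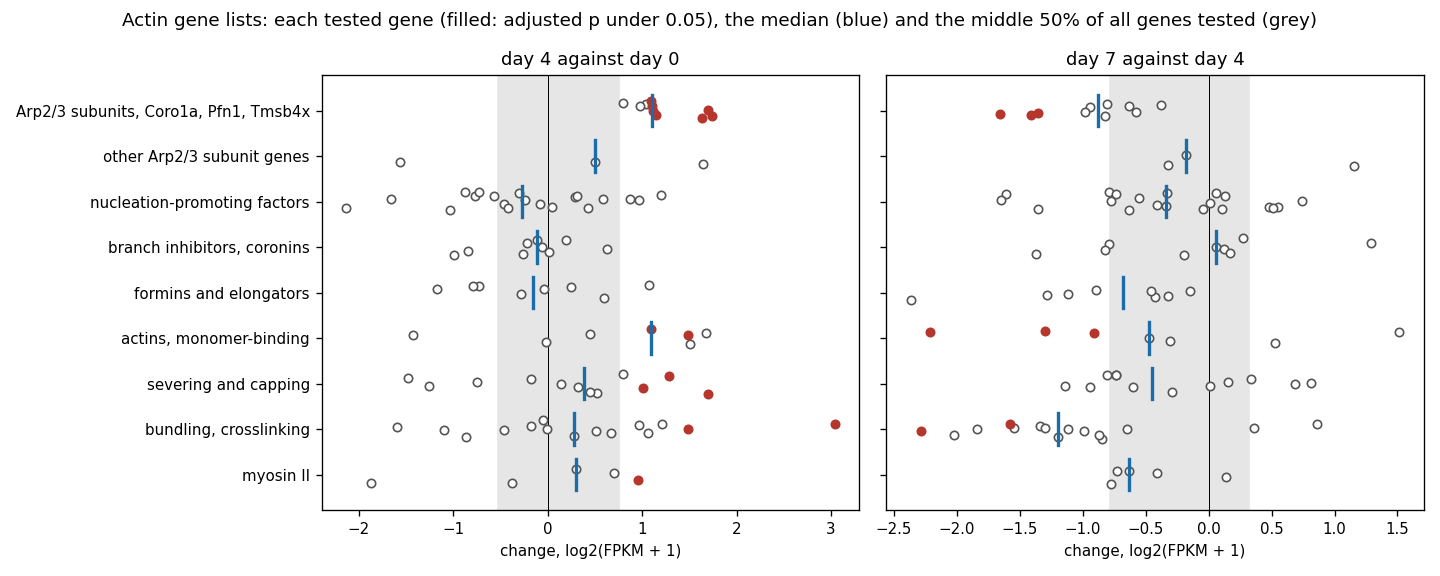
Change on the log2(FPKM + 1) scale (horizontal axes) of each tested gene in 9 actin gene lists, at day 4 against day 0 and day 7 against day 4, with filled points for an adjusted p under 0.05, blue lines at the list medians and grey for the middle 50% of all genes tested. The list of the 10 genes has its median at 1.11 in the first panel. That of nucleation-promoting factors and their partners has its median at -0.27 there, with no filled point.

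The 7 subunit genes were averaged into a profile over the 16 libraries, and the tested genes nearest to it were ranked by the root mean square difference of their log2 values, each centred on its own mean. Myl12a was nearest at 0.17, followed by Cfl1 at 0.19 and by 3 gene models, Gm6180 (0.19), Gm18025 (0.21) and Gm6433 (0.21). The members lay at 0.23 (Arpc2) to 0.53 (Coro1a). The 7 subunit genes are part of the profile while Coro1a, Pfn1 and Tmsb4x are not, and the measure grows with the size of a gene's own changes, so no order of the members is read from it. The points share depth and scaling, Gm6180 is a near copy of Cfl1, and models near copies of Myl12a hold a median of 247.2% of its reads, so those values are not independent. The profile itself was lowest in day 0 replicate 1 (-1.13) and highest in day 4 replicate 3 (0.89).

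Markers of other retinal cells moved with the day as well. Over the 10 bipolar cell genes the median change at day 4 was -1.73 and 3 fell (Cabp5, Gng13 and Pcp2), and their summed level was 58.2 to 403 FPKM at day 0 and 0.452 to 58.3 at day 4. Over the 12 Mueller glia and astrocyte genes the median was -2.01 and 1 fell, Glul (-2.05), with sums of 2333 to 4199 and 588 to 6550 FPKM. The highest sum, in day 4 replicate 3, came with the lowest mean log2 value of the list (2.51) and 5 of its 12 genes at 0. That sum therefore rests on few genes and is not read as an amount of Mueller or astrocyte RNA. The 12 rod genes had a median of -0.58 with no limma call (3 at an unadjusted p under 0.05), and the 12 microglia genes a median of -0.10 with 1 call, Fcrls (1.67). Sums of the 8 border-associated macrophage genes were 41.3 to 255 FPKM at day 0 and 99.3 to 364 at day 4, with Mrc1 at up to 10.5 and up to 19.1. Of the 7 tested genes of that list 5 had a positive change, with a median of 1.06, and 1 was called, lower at day 4, Lyve1 (-2.95). From day 4 to day 7, where Coro1a, Arpc4 and Pfn1 fell, changes were positive for 12 of 12 rod genes (median 0.98, no limma call, 4 at an unadjusted p under 0.05), 10 of 10 bipolar genes (median 0.83, 1 call, Pcp2) and 11 of 12 Mueller and astrocyte genes (median 1.16, no limma call, 3 at an unadjusted p under 0.05). None of the 7 border-associated macrophage genes had a positive change (median -0.92, no limma call, 2 at an unadjusted p under 0.05), and their sums were 20.4 to 91.7 FPKM at day 7. At day 4 against day 0 limma called no gene of the other lists, of which 7 cone, 5 amacrine, horizontal and ganglion cell, 4 endothelial and pericyte, 2 monocyte and 2 neutrophil genes were tested (1 endothelial or pericyte and 1 monocyte gene at an unadjusted p under 0.05), and no lymphocyte or erythrocyte gene passed the filter. At day 7 against day 0, limma called 1 of the 2 tested monocyte genes higher and 1 of the 7 tested border-associated macrophage genes lower. Called genes named from these lists were picked after their values were seen. In bulk libraries fewer cells of a type and less RNA per cell cannot be told apart. With the mean of the bipolar and Mueller lists as a covariate, limma called none of the 10 genes and no other gene at day 4 (3 of the 10 had an unadjusted p under 0.05), with changes of 1.25 for Actr3, 0.94 for Pfn1 and 1.07 for Coro1a, and -0.06 for Tmsb4x. With the same covariate none of the 3 falls from day 4 to day 7 passed (Coro1a -1.18, adjusted p of 0.32; Arpc4 -1.17, 0.172; Pfn1 -0.81, 0.243). The mean log2 value of the bipolar list was 2.09 to 4.81 at day 0 and 0.059 to 1.96 at day 4. That of the Mueller and astrocyte list was 3.22 to 6.38 and 2.51 to 3.06. Neither list overlapped between these days, so the covariate largely follows the day and the fit cannot tell them apart. No conclusion is drawn from the calls lost with it. The part of these cells in the values of the 10 genes was not tested.

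**Figure D5:**
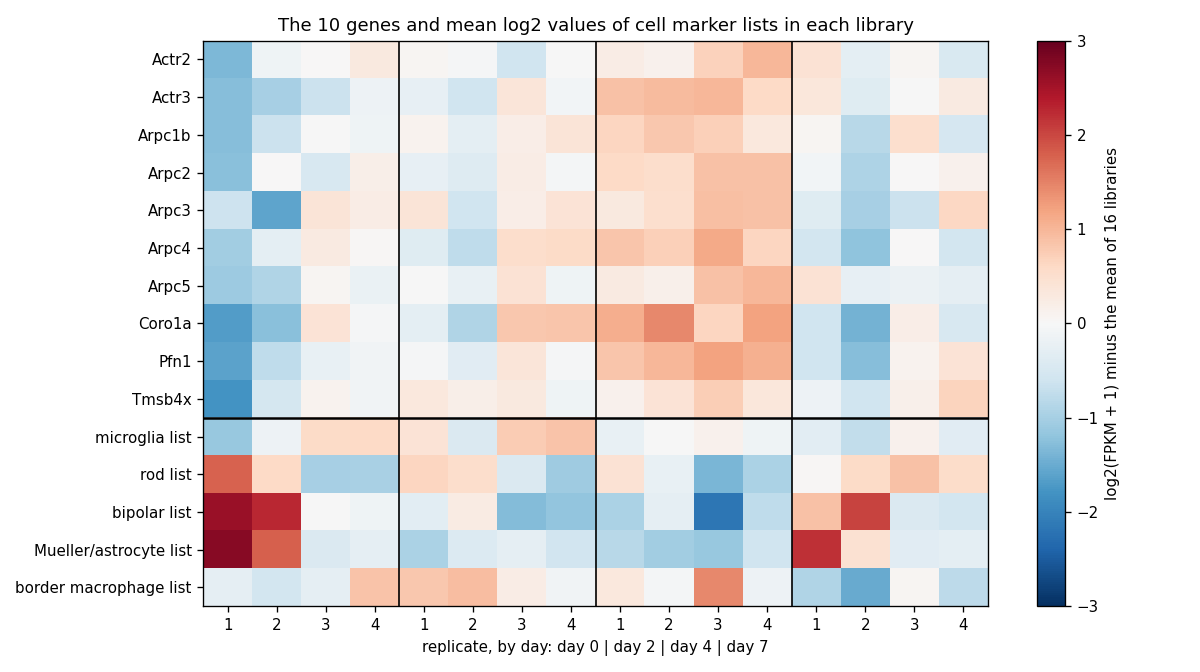
Each library's log2(FPKM + 1) minus the mean of the 16 libraries, as color from -3 to 3, for the 10 genes and for the mean of 5 cell marker lists, with libraries in columns by day and replicate. The 10 genes are above their means in all 4 day 4 libraries, and day 0 replicate 1 has the lowest values for most of them and the highest for the rod and Mueller lists.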

How the data were processed

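The table holds FPKM values that the authors made from reads mapped with STAR 2.7.2b and counted with featureCounts 1.6.1 against build GRCm38.p6 (also listed as mm10), as the submitters' processing notes give it, and it lists the gene lengths they divided by. The handling of multi-mapped reads was not given in the sources used here. From these columns, the deposited FPKM times length gave the reads behind each value, of which 47.4% to 63.8% were whole numbers (within 0.02), so the values were tested as FPKM and not as counts. Libraries were amplified and made with the Nextera XT kit, per the labels' protocols, so reads are not independent molecules. In a gene of 1 kb, 3 reads came to 0.191 to 0.347 FPKM, a floor that covers counting error only.

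limma 3.58.1 (lmFit and trended eBayes, in R 4.3.3) was run on log2(FPKM + 1) for genes that reached 1 FPKM in 4 or more libraries. The 16 libraries shared 1 model with the day and, as a covariate, the batch, read from the first digits of the title code. Tests were two-sided, with Benjamini-Hochberg adjustment over all 14795 genes at 0.05. A second limma model with a day-by-batch term gave the within-batch changes. Paralog shares were compared with exact permutation tests. The fit was tested on simulated data. Near copies were sought with BLAST among the transcripts of GENCODE M21, which held 99.56% of the table's genes.

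The 10 genes and all lists were chosen with earlier results of these data known. Named are all 10 genes in every comparison, up to 4 called genes per actin list with the smallest adjusted p, a few genes nameable in every case (among them Arpc1a, Cdc42, Cfl1, Rac2 and Was), the 5 genes nearest to the subunit profile, and defining cell markers. The 12 marker lists also covered cone, amacrine, horizontal and ganglion cell, endothelial and pericyte, monocyte, neutrophil, lymphocyte and erythrocyte genes. Alternatives were another pseudocount (0.1), no filter, median-of-ratios scaling, no batch term, a replicate block, each batch alone, marker lists as a covariate, only the groups compared, and leaving out libraries. 1 gene list that was also tested is not reported here.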

Additional observations from a re-analysis of the deposited data

Results flagged for a closer look

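Among the 40 sets of 4 libraries formed by 10 genes and 4 days, 2 held a library far from the other 3, by a gap to the nearest of them that passed Dixon's 95% critical value. Chance flags about 1 in 20 such groups. Actr2 at day 2 was 19.84 FPKM in replicate 3, below the 29.9 to 31.8 of the others. Arpc5 at day 7 was 266.9 FPKM in replicate 1, above the 162 to 174 of the others.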

How the results depend on the processing

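The smallest count behind a value of the 10 genes was 402.5 reads (Arpc3), and the spread between libraries is not split here into counting and other error. With no filter on low values, the genes called were 14 at day 2, 308 at day 4 and 13 at day 7 against day 0, 2 for day 4 against day 2, 63 for day 7 against day 4 and 120 in the F test, and the members called were 2 at day 4, 0 for day 7 against day 4 and 1 in the F test. With median-of-ratios factors, 271 genes were called at day 4 (2 members), 19 for day 4 against day 2, 72 for day 7 against day 4 (0 members) and 221 in the F test (1 member). That scaling reversed Actr2 at day 2 (-0.027), Tmsb4x for day 4 against day 2 (-0.063) and Tmsb4x for day 7 against day 4 (0.073). A pseudocount of 0.1 called 38 genes at day 7 against day 0. Without the batch covariate, 39 genes were called at day 7 against day 0, and the members called were 3 at day 4, 0 for day 7 against day 4 and 1 in the F test. With only the 2 groups compared, 401 genes (3 members) were called at day 4, 2 at day 7 against day 0, 32 for day 4 against day 2 and 6 (0 members) for day 7 against day 4.

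In the first batch alone, limma called 20 genes at day 2, 303 at day 4 (3 members), 2 at day 7 against day 0, 1 for day 4 against day 2, 0 for day 7 against day 4 (0 members) and 30 in the F test (0 members). In the second batch alone it called 0 genes and 0 members in every comparison and the F test, and changes reversed for Actr2 (-0.47) and Arpc3 (-9.17e-05) at day 2, Cdc42 (-0.042) at day 4, and Actr2 (-0.36), Arpc3 (-0.31), Arpc5 (-0.16) and Coro1a (-0.32) at day 7 against day 0. Each batch alone has 2 libraries a day. With the bipolar and Mueller lists as a covariate, 0 genes were called at day 2, 0 at day 4 (0 members), 15 at day 7 against day 0, 31 for day 7 against day 4 (0 members) and 44 in the F test (0 members). It reversed Actr2 (-0.17), Arpc4 (-0.018) and Tmsb4x (-0.11) at day 2, Tmsb4x (-0.057), Arhgdib (-0.096) and Cdc42 (-0.092) at day 4, Arpc3 (-0.10) and Coro1a (-0.11) at day 7, and Tmsb4x for day 7 against day 4 (0.36). Without both day 2 libraries whose titles begin with F, 1 gene was called at day 2 and 0 for day 4 against day 2, and Arpc4 at day 2 (-0.0435) and Tmsb4x for day 4 against day 2 (-0.20) reversed. The cause of these moves was not tested.

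The replicate numbers gave no pairing: over 24 pairs of libraries with the same number the deviations correlated at -0.06 to 0.23, 5 of them over 0.1, and 6 of 16 libraries correlated best with their own number. With a replicate block, 30 genes were called at day 2, 22 at day 7 against day 0, 31 for day 4 against day 2, 152 for day 7 against day 4 and 245 in the F test, where 2 members passed. The block ended the calls of Arpc1b, Arhgdib, Capg, Capza2, Cotl1 and Myl12a at day 4 and of Coro1a, Actb, Actg1 and Cap1 for day 7 against day 4. Leaving out each library in turn gave 8 to 77 genes at day 2, 267 to 955 at day 4, 16 to 57 at day 7 against day 0, 2 to 104 for day 4 against day 2, 62 to 256 for day 7 against day 4 and 149 to 510 in the F test. The members called ranged from 2 to 7 at day 4, from 0 to 4 for day 7 against day 4 and from 0 to 5 in the F test. Changes that crossed 0 were Actr2 at day 2 (-0.20 to 0.34) and, at day 7 against day 0, Actr2 (-0.12 to 0.41), Arpc2 (-0.062 to 0.40), Arpc3 (-0.24 to 0.30) and Coro1a (-0.14 to 0.29), none of which had passed.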
